A study of Mus musculus with 4 samples.

Results

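Deep-layer spots of the cerebral cortex were the 635 spots, of 12696 compared, whose counts were richest in 6 genes of deep-layer excitatory neurons. They were chosen by the summed CPM (a gene's UMIs scaled to a fixed total per spot or sum of spots) of Tbr1, Fezf2, Hs3st2, Rprm, Nxph3 and Myl4, among spots over tissue with at least 2000 unique molecular identifiers (UMIs, molecules counted once each). A spot was a member when this score was at or above the 95th percentile, 730.0 CPM, of the 4 capture areas pooled. The data were spatial transcriptomes of formalin-fixed, paraffin-embedded mouse brain sections, taken at day 11 after a tumour had been inoculated and resected, in a study of the response to tumour regrowth with and without a hydrogel. Two-part probes were hybridised to messenger RNA and captured on an array of barcoded spots, so a spot is a small region that can hold several cells. The Vehicle group, without the hydrogel, had the areas Vehicle 1+4 and Vehicle 2+3, and the hydrogel-treated group had the areas TREAT 1+4 and TREAT 2+3. The labels give no strain, age or tumour line for any group, and no source used here says what 1+4 and 2+3 stand for. All 4 areas came from the tumour-inoculated model, 4 animals were stated for the series, and each area held 2 pieces of tissue, so Vehicle is untreated tumour-bearing brain rather than healthy brain, and which animal gave which piece is not stated.

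The cerebral cortex is built in layers of excitatory neurons that differ in where they send their axons. Neurons of layer 6 project mainly to the thalamus, thick-tufted neurons of layer 5 project to the brainstem and spinal cord, layer 6b is a remnant of the embryonic subplate, and neurons of the upper layers connect cortical areas with each other. Tbr1 and Fezf2 are transcription factors that specify these deep projection neurons during development.

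Values for the 4 areas are given throughout in the order Vehicle 1+4, Vehicle 2+3, TREAT 1+4 and TREAT 2+3. The areas held 3016, 3327, 3349 and 3004 spots of at least 2000 UMIs, and 34202695, 45960125, 56150597 and 51081123 UMIs over tissue. The members numbered 168, 78, 172 and 217. Their summed UMIs were 1317039, 612296, 3662581 and 2887294, so Vehicle 2+3 gave the shallowest profile. The median member held 7412, 6826, 18886 and 12541 UMIs, and both TREAT areas were deeper than both Vehicle areas in this measure.

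The score genes were high in members because they chose them, and their levels are a description. Rprm, a p53-induced cell cycle inhibitor that marks layer 6 neurons, stood at 514, 421, 294 and 304 CPM in members and at 20.7, 11.1, 32.9 and 33.3 CPM in all other spots. Tbr1 stood at 188, 171, 164 and 145 CPM against 12.1, 8.74, 21.7 and 22.7 CPM. Fezf2 stood at 166, 114, 61.2 and 93.5 CPM in members, Hs3st2, a heparan sulfate sulfotransferase, at 134, 111, 130 and 145 CPM, Nxph3, a secreted ligand of neurexins, at 172, 142, 141 and 173 CPM, and Myl4, a myosin light chain, at 62.3, 84.9, 162 and 144 CPM. All 6 genes had counts in the members of every area. Rprm and Fezf2 were higher in both Vehicle areas than in both TREAT areas, and Myl4 the other way round. The spots were chosen by the sum of these genes, so this order is no result about the groups. At least 3 of the 6 genes had a UMI in 139, 65, 171 and 209 of the members.

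The threshold cut a continuous range. The 5 members nearest to it scored 730.1, 731.8, 732.2, 732.9 and 733.4 CPM, and the 5 nearest spots left out scored 729.9, 728.9, 728.5, 728.2 and 727.8 CPM. Within 10% of the threshold lay 127 members and 149 other spots, while 6091 of the 12061 other spots had a score of 0. The deep-layer class is therefore a range of the score rather than a separate kind of spot.

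Members lay together on the tissue, which the rule did not use. Among the array neighbours of a member, 50.6%, 39.7%, 52.1% and 49.9% were themselves members, against 2.94%, 1.38%, 2.51% and 3.99% of the neighbours of other spots. Members with no member beside them numbered 26, 17, 16 and 14. The map of spots shows their positions and those of the upper-layer spots, and contact between both classes was not measured. No member lay in proliferating tissue, defined as spots in the top 20% of the summed CPM of 21 proliferation genes with at least 3 such neighbours of 6, and its spots numbered 764, 993, 208 and 370. The median member lay 10.8, 8.89, 11.3 and 10.8 spot spacings of 100 micrometres from it, and the nearest lay 1, 1.73, 4 and 2.65 spacings away.

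**Figure D1:**
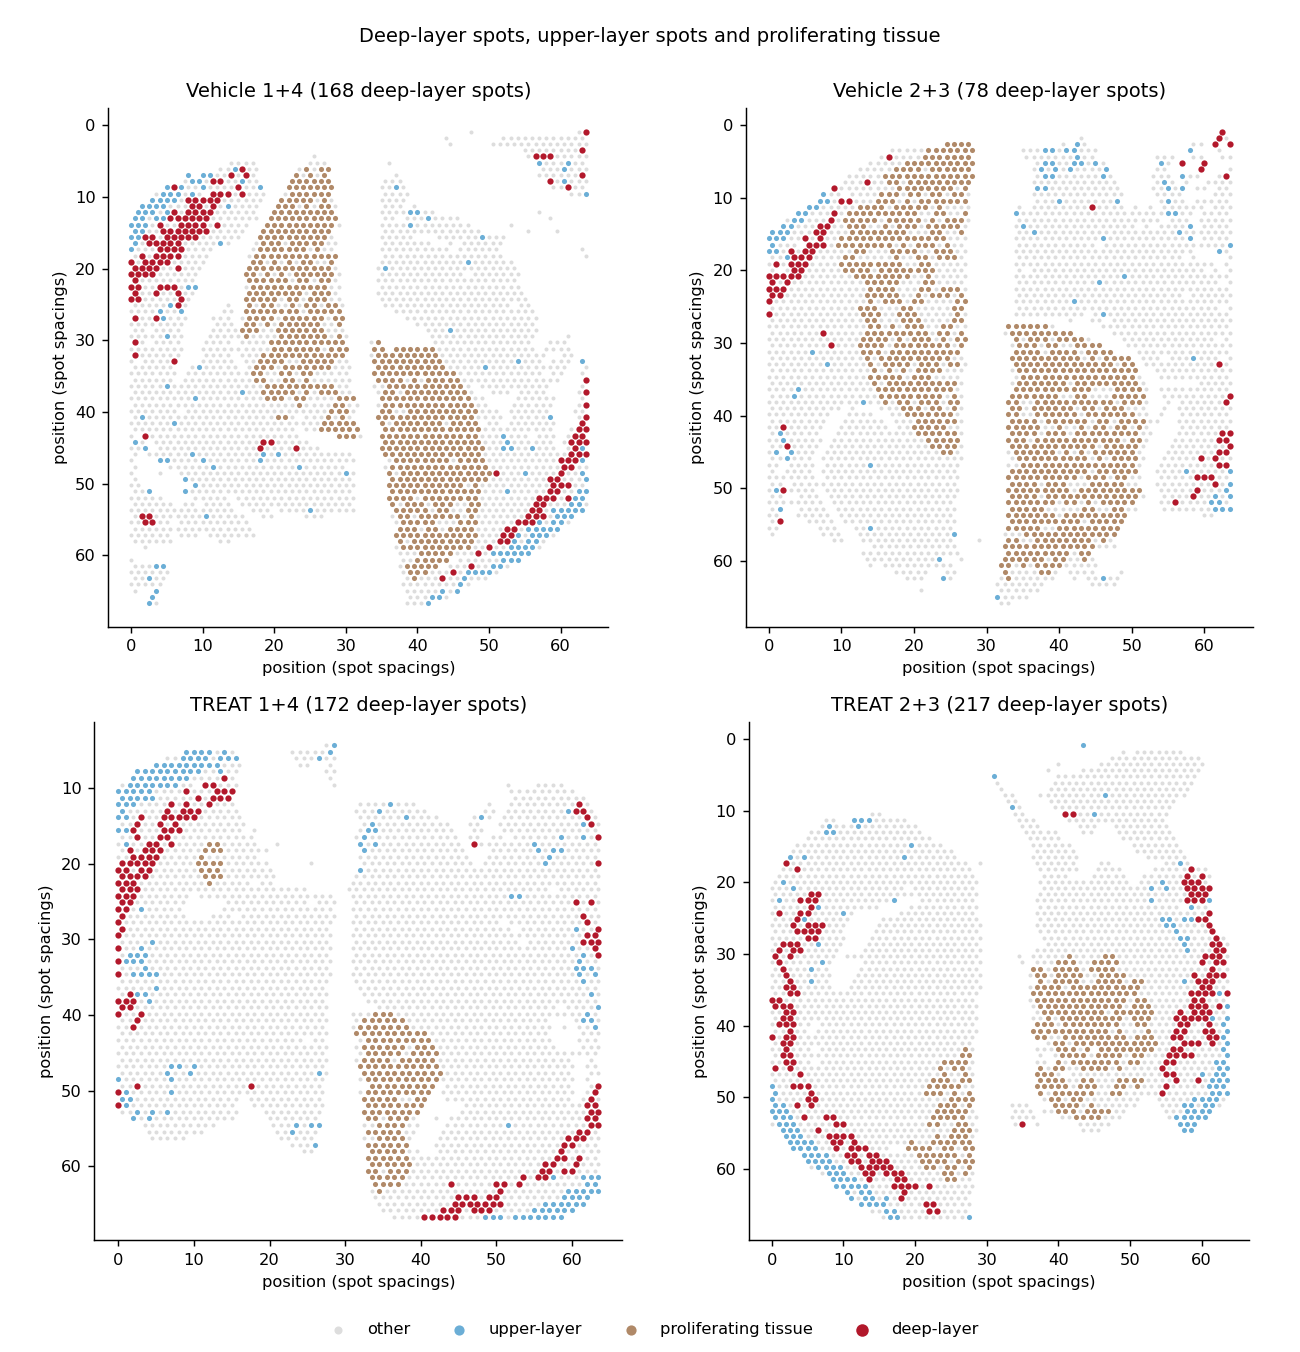
Positions of spots in each of the 4 capture areas, in spot spacings on both axes, coloured as deep-layer spots, upper-layer spots, proliferating tissue or other spots. Most of the 635 deep-layer spots have another deep-layer spot beside them, and all lie outside the proliferating tissue.

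The share of spots that were members was 5.57% (Wilson 95% interval 4.81 to 6.45), 2.34% (1.88 to 2.92), 5.14% (4.44 to 5.94) and 7.22% (6.35 to 8.21), and the intervals cover counting error only. Vehicle 2+3 was the low one, and TREAT 1+4 lay below Vehicle 1+4, so the groups overlapped. The mean was 3.96% ± 2.28 (SD, n = 2) in Vehicle and 6.18% ± 1.48 (SD, n = 2) in TREAT. The difference of 2.22 percentage points had a two-sided exact permutation p of 0.67, in a design that cannot go below 0.33, and it was 0.61 points without Vehicle 2+3.

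The genes whose level over spots ran most closely with the score were markers of cortical excitatory neurons. They included Nrgn, a postsynaptic calmodulin-binding protein, with a mean correlation over the 4 areas of 0.42, Nptx1 (0.40), Pde1a (0.40), Vxn (0.39), Icam5 (0.39), Neurod2 (0.38), Tmem178 (0.38), Slc8a2 (0.37) and Dkk3 (0.37). The correlations are Pearson values of log2(CPM + 1) over the spots of an area, which share library and depth, and the score genes themselves reached 0.41 to 0.64.

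Set against all other spots, deep-layer spots were rich in genes of cortical excitatory neurons and of synapses, and poor in genes of the tumour, of the interferon response and of the thalamus. The members were chosen in the same spots, so the counts of this comparison describe which genes accompany the 6 score genes. UMIs were summed per area over members and over the other spots and compared with edgeR's quasi-likelihood test with the area as a block. Differences are log2 values with standard errors (SE), p-values were adjusted by Benjamini-Hochberg over all genes tested, and a gene was called at an adjusted p under 0.05. Of 18781 genes, 17.0% were called higher and 20.7% lower, with a median difference of -0.15. The score genes were left out of this and of every later test. In sums over spots, fewer cells of a type and less RNA per cell cannot be told apart.

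Vxn (vexin, chromosome 1, 9601267 to 9627142, GRCm38.p6), which promotes neuronal differentiation, stood at 622, 524, 829 and 851 CPM in members and at 44.5, 32.1, 117 and 117 CPM in other spots. The lowest member sum was above the highest value of the other spots, and the difference was 3.49 (SE 0.24, adjusted p 6.15e-32). Cplx3, a complexin of layer 6b neurons, stood at 40.2, 40.8, 84.9 and 82.8 CPM against 2.91, 3.25, 12.1 and 13.7 CPM, a difference of 3.28 (SE 0.23). Grik3, a kainate receptor subunit, stood at 138, 121, 124 and 125 CPM against 17.7, 9.66, 35.4 and 23.2 CPM (2.80, SE 0.22). Ccn2, a secreted matricellular protein that marks layer 6b, stood at 140, 124, 232 and 145 CPM against 22, 30.2, 34.9 and 30.6 CPM (2.56, SE 0.22). The other leading genes on this side, with differences from 2.61 to 3.26, were Gm11549, Ttc9b, Bmp3, Tmem178, 1110032F04Rik, Igsf21, Mpped1 and Rbp4. In all of these the members of every area were higher.

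All 10 genes of the layer 6 corticothalamic list were called higher, with a median of 2.03, as were all 14 tested genes of the pan-excitatory list (median 1.92). Foxp2, a transcription factor of these neurons, stood at 17.5, 21.2, 25.7 and 22.9 CPM in members and at 4.58, 4.32, 14.9 and 6.51 CPM elsewhere (1.76, SE 0.26). Of the synaptic lists, 16 of 16 presynaptic genes (median 1.56) and 15 of 16 postsynaptic genes (median 1.30) were called higher. Stx1a, a syntaxin of the vesicle fusion machinery, stood at 245, 145, 258 and 243 CPM against 67.4, 48.5, 74.2 and 73.7 CPM. Markers of layer 5 neurons that project out of the forebrain did not follow: 4 of 10 were called higher and 3 lower, with a median of 0.19. The layer 6b list was split too: of 9 tested genes 3 were called higher (Cplx3, Ccn2 and Nxph4) and 3 lower (Inpp4b, Cobll1 and Svil), with a median of 0.50. The label therefore held for the layer 6 corticothalamic list and was mixed for the layer 5 and layer 6b lists.

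On the other side, 20 of 21 proliferation genes (median -3.26), 16 of 16 mesenchymal glioma genes (-2.74), 17 of 17 interferon-induced genes (-2.87) and 16 of 16 antigen presentation genes (-2.61) were called lower in deep-layer spots. The proliferation list also defined the proliferating tissue in which no member lay. Mki67, a nuclear protein of cycling cells, stood at 6.07, 22.9, 1.91 and 6.23 CPM in members and at 145, 169, 76 and 154 CPM elsewhere (-4.20, SE 0.27). All 10 thalamic genes were called lower (median -1.73), with Prkcd, a protein kinase C of thalamic relay neurons, at 20.5, 52.3, 16.9 and 13.9 CPM against 153, 165, 460 and 212 CPM. The leading genes of this side were Rhox5, Tex101, Ttr, Cdkn2a, Tubb6, Csn3, Anxa1, Cxcl10, Prph, Pcolce, Tinagl1 and Ppic, with differences from -5.68 to -4.27. Ttr, the transthyretin of the choroid plexus, stood at 31.9, 3.27, 19.7 and 54 CPM against 603, 157, 1515 and 2208 CPM.

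The comparison with upper-layer spots asked how the spots of both classes differ within the same sections. The 608 upper-layer spots were those in the top 5% of the summed CPM of Cux2, Rasgrf2, Lamp5, Otof and Stard8 that were not members. Of 11779 genes tested, 7.23% were called higher in deep-layer and 7.09% in upper-layer spots. Corticothalamic and layer 6b genes and myelin genes were higher in deep-layer spots, and upper-layer, striatal, meningeal and part of the interneuron genes were lower. The score genes of both classes were left out. The calls numbered 855 without TREAT 1+4 and 1001 without TREAT 2+3, against 1687 with all areas.

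All 10 corticothalamic genes were called higher, with a median of 1.53. Hs3st4 (chromosome 7, 123982366 to 124398989), a heparan sulfate sulfotransferase, stood at 357, 310, 253 and 187 CPM in deep-layer spots and at 53.7, 61.6, 55.8 and 43.4 CPM in upper-layer spots. The classes did not overlap, and the difference was 2.34 (SE 0.10, adjusted p 8.16e-12). Col5a1, a fibrillar collagen chain, stood at 167, 89.8, 117 and 108 CPM against 24.4, 16.3, 18.4 and 21.3 CPM (2.60, SE 0.12). Vxn differed by 2.15 (SE 0.10) and Igsf21, a synaptic adhesion protein, by 1.93 (SE 0.11). Of 6 tested layer 6b genes, 4 were called higher, with Ccn2 at 140, 124, 232 and 145 CPM against 25.2, 25.4, 13 and 21.7 CPM (3.18, SE 0.19).

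Nr4a2 (chromosome 2, 57106830 to 57124003), an orphan nuclear receptor of claustrum and layer 6 neurons, stood at 31.1, 19.6, 107 and 115 CPM in deep-layer spots and at 5.7, 5.43, 9.35 and 13.6 CPM in upper-layer spots. It was higher in the deep-layer spots of each area, by 3.20 (SE 0.17, adjusted p 7.96e-11). Of the 7 tested genes of layer 6 intratelencephalic and claustral neurons, 4 were called higher and Fst lower. Of 9 layer 5 extratelencephalic genes 1 was called higher, Bcl11b, and 1 lower, Vat1l, near the 7.23% and 7.09% of all genes. Of 5 layer 5 intratelencephalic genes 3 were called higher and Rorb lower, beside the same shares of all genes.

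Of 14 tested genes of layers 2/3 and 4, 9 were called lower in deep-layer spots and 2 higher, with a median of -1.02. Calb1 (chromosome 4, 15881264 to 15906709), a calcium-binding protein of upper-layer neurons, stood at 123, 71.9, 118 and 125 CPM in deep-layer spots and at 470, 464, 636 and 559 CPM in upper-layer spots. The difference was -2.23 (SE 0.10, adjusted p 8.16e-12), with no overlap. Wfs1, a membrane protein of the endoplasmic reticulum, stood at 41, 55.5, 64.2 and 54.4 CPM against 146, 183, 177 and 136 CPM (-1.49, SE 0.10). Cdh24 and Adamts2 were the 2 genes of that list called higher in deep-layer spots. Further genes lower in deep-layer spots were Gucy1a1, Pmch, Rims3, Kcnh5, Mapk4, Camk2n1, Bhlhe22, Prag1, Evc2 and Car4, with differences from -4.49 to -0.95. Pmch was uneven in upper-layer spots, at 44, 194, 142 and 5.11 CPM. The summed hypothalamic list was uneven there too, at 926, 2715, 1670 and 870 CPM, against 809, 799, 1155 and 1289 CPM in deep-layer spots. The part of hypothalamic tissue in the upper-layer class was not tested.

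**Figure D2:**
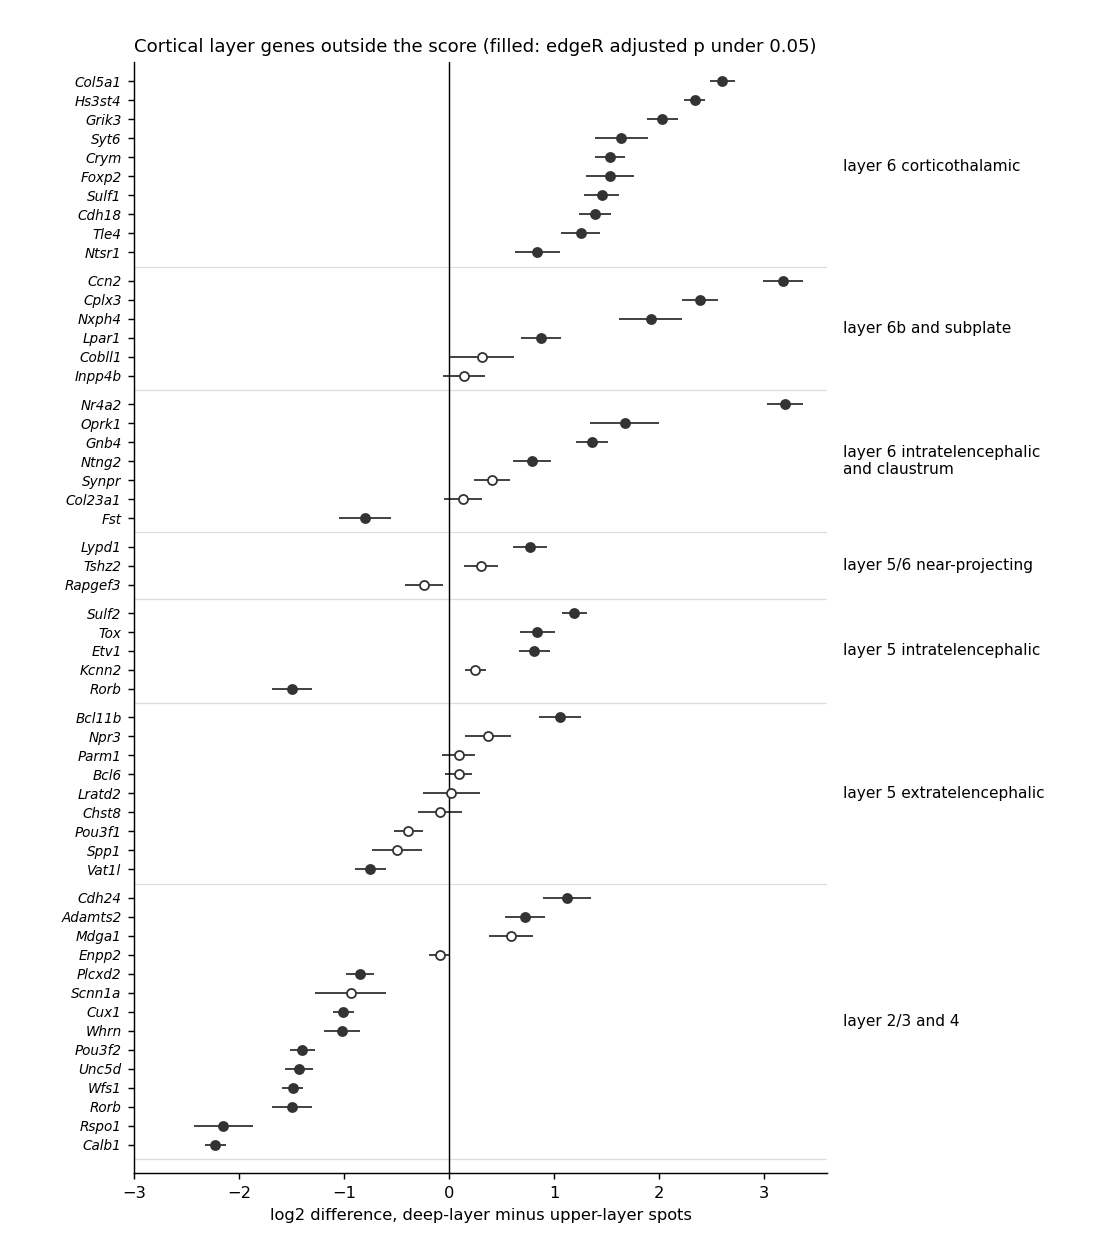
Log2 difference (deep-layer minus upper-layer spots, points with SE bars) of each tested gene of 7 cortical neuron lists outside the scores, filled where called by edgeR at an adjusted p under 0.05. All 10 layer 6 corticothalamic genes lie to the right of 0, and 9 of the 14 genes of layers 2/3 and 4 are filled to its left; Rorb belongs to 2 of the lists.

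Myelin genes were higher in deep-layer spots: all 11 oligodendrocyte genes were called, with a median of 1.14. Mbp, a major myelin protein, stood at 3571, 4214, 2784 and 2194 CPM against 1567, 2367, 1300 and 906 CPM (1.13, SE 0.08). Cldn11, a tight junction protein of myelin, stood at 317, 688, 284 and 218 CPM against 116, 185, 89.5 and 69 CPM (1.69, SE 0.09), and Trf, the iron carrier transferrin, and Cryab, a small heat shock protein, were also called. The summed oligodendrocyte list was 7625, 10575, 6460 and 5465 CPM in deep-layer spots and 3419, 5670, 2992 and 2144 CPM in upper-layer spots. All 8 tested striatal genes were called lower (median -1.31), which fell to 3 with DESeq2 and to 3 without TREAT 1+4. Their summed level was 370, 443, 695 and 575 CPM in deep-layer spots and 541, 522, 2388 and 1519 CPM in upper-layer spots, and the part of striatal tissue in the upper-layer class was not tested. All 6 tested meningeal genes were called lower (median -1.58), and 6 of 16 interneuron genes were called lower and none higher (median -0.45), Vip among them at 25.8, 19.6, 42.6 and 42.6 CPM against 71.7, 65.2, 98.2 and 85.6 CPM.

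Part of the immune and glial response genes were also called higher in deep-layer than in upper-layer spots. Of the reactive astrocyte list 6 of 12 were called higher (median 0.92), of the interferon-induced list 7 of 15 (0.57) and of the antigen presentation list 8 of 15 (0.56). In Vehicle 1+4 the summed lists hardly differed, at 1375 CPM in deep-layer and 1338 CPM in upper-layer spots for reactive astrocytes, 396 and 453 CPM for interferon-induced genes and 1540 and 1495 CPM for antigen presentation. The interferon-induced count was 2 without either TREAT area and 2 with DESeq2. Serpina3n, a protease inhibitor of reactive astrocytes, stood at 72.9, 518, 155 and 122 CPM against 66, 158, 11.4 and 26.8 CPM (2.03, SE 0.27). Gfap, the intermediate filament of astrocytes, stood at 971, 2174, 958 and 1212 CPM against 914, 1076, 220 and 498 CPM (1.16, SE 0.18). Vehicle 2+3 was the highest area for both genes in deep-layer spots.

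Ighm, the immunoglobulin mu heavy chain, stood at 93.4, 136, 96.9 and 110 CPM in deep-layer spots and at 14.7, 38, 12 and 14.5 CPM in upper-layer spots (2.76, SE 0.15). Trbc2 (chromosome 6, 41546730 to 41548181), the second constant region of the T cell receptor beta chain, stood at 34.2, 55.5, 82.2 and 47.1 CPM against 5.7, 9.06, 8.02 and 4.68 CPM (3.20, SE 0.18), and at 13.8, 12.6, 12.5 and 11.3 CPM in all other spots. It was the gene of the 12 T and NK cell markers that was called higher against all other spots (2.23, SE 0.23), while the other 11 were called lower. The defining T cell genes were near 0 in deep-layer spots: Cd3e stood at 2.28, 1.63, 1.37 and 2.42 CPM against 13.5, 12.4, 9.85 and 11.9 CPM in other spots, and Trac, the alpha chain constant region, at 2.28, 8.17, 0.819 and 2.77 CPM against 14.1, 12.6, 7.07 and 9.24 CPM. The first beta constant region, Trbc1, stood at 1.52, 4.9, 0 and 0.346 CPM, and its near-identical sequence leaves the split of molecules between both constant regions uncertain.

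The hippocampal CA fields, another sheet of excitatory forebrain neurons, were represented by the 624 spots in the top 5% of the summed CPM of Spink8, Fibcd1, Lefty1, Cabp7 and Iyd that were not members. Of 11028 genes tested, 5.45% were called higher in deep-layer spots and 5.36% in CA spots; the calls numbered 678 without TREAT 1+4 and 749 without TREAT 2+3, against 1192. Most corticothalamic genes were called higher in deep-layer spots, and most homeostatic astrocyte genes in CA spots. Mef2c (chromosome 13, 83504017 to 83667079), a transcription factor of cortical neurons, stood at 320, 229, 258 and 278 CPM in deep-layer spots and at 43.9, 41.6, 36 and 38.2 CPM in CA spots. The classes did not overlap, and the difference was 2.73 (SE 0.15, adjusted p 9.27e-06). Grm8, a metabotropic glutamate receptor, stood at 48.6, 40.8, 58.4 and 62.7 CPM against 0.896, 0.681, 3.13 and 1.59 CPM (4.98, SE 0.29). Grik3, Cplx3, Trbc2, Garnl3, Ngef, Cobl, Gfra2, Tshz3, Doc2a and Tshz2 were the further leading genes, from 2.09 to 4.91.

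Of the corticothalamic list, 8 of 10 genes were called higher than in CA spots and Crym lower, with a median of 2.11. Crym, a thyroid hormone-binding protein, stood at 107, 70.2, 81.6 and 55.8 CPM in deep-layer spots, 319, 247, 242 and 134 CPM in CA spots and 33.4, 10.9, 29.7 and 25.1 CPM in upper-layer spots. Among the genes higher in CA spots, Npy2r, a neuropeptide Y receptor, stood at 34.1, 108, 70.4 and 65.2 CPM there and at 5.31, 6.53, 5.19 and 6.93 CPM in deep-layer spots (-3.45, SE 0.22). Thsd4, Shisa6, Sipa1l3, Ust, Slc24a3, Adra1d, Gabra5, Homer3, Zbtb20, Pcdh20 and Ccbe1 were the other leading genes on that side, from -3.70 to -1.87. Of 12 homeostatic astrocyte genes 9 were called lower in deep-layer spots (median -0.67), and of 16 postsynaptic genes 7 were called lower and none higher (median -0.52), among them Gria1, an AMPA receptor subunit, at 411, 240, 303 and 331 CPM against 857, 698, 1056 and 938 CPM. None of the 15 tested interferon-induced genes and none of the 15 tested antigen presentation genes was called in either direction. Of all genes 5.45% were called higher and 5.36% lower, so few calls were likely in lists of this size.

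Within the deep-layer spots, genes of antigen presentation, the interferon response, reactive astrocytes and activated microglia were higher near proliferating tissue. Members of an area were split at their median distance to that tissue, into 85 and 83, 40 and 38, 87 and 85, and 109 and 108 near and far spots. The median distance was 8.66, 4.79, 7.55 and 6 spacings in near spots and 13.9, 11.9, 20.3 and 20.8 in far spots. Of 10396 genes tested, 4.46% were called higher near and 1.96% higher far. Near and far spots also differed in the piece of tissue: near spots on the first and second piece numbered 51 and 34, 35 and 5, 69 and 18, and 45 and 64, and far spots 54 and 29, 13 and 25, 23 and 62, and 77 and 31. The part of the piece in these differences was not tested.

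B2m (beta-2 microglobulin, chromosome 2, 122147687 to 122153082), the light chain of MHC class I molecules, stood at 1108, 3789, 794 and 1034 CPM in near spots and at 368, 1413, 225 and 314 CPM in far spots of the same areas. Near spots were higher in each area, the far spots of Vehicle 2+3 lay above the near spots of the other areas, and the difference was 1.64 (SE 0.10, adjusted p 4.47e-10). Of 15 tested antigen presentation genes 14 were called higher near, with a median of 1.64. H2-K1, a class I heavy chain, stood at 109, 342, 93.1 and 92.8 CPM near and at 17.8, 66.7, 19.6 and 28.9 CPM far (2.16, SE 0.16), and Psmb8, a subunit of the immunoproteasome, at 78.5, 420, 40.1 and 104 CPM near and 24.6, 89, 11.3 and 35.1 CPM far (1.82, SE 0.16).

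Of 13 tested interferon-induced genes 12 were called higher near, with a median of 1.57. Bst2, the antiviral membrane protein tetherin, stood at 121, 417, 74.6 and 167 CPM near and at 57.4, 141, 31.9 and 32 CPM far (1.60, SE 0.16). Gbp2, an interferon-induced GTPase, stood at 41, 216, 26.5 and 67.9 CPM near and at 15, 63, 7.84 and 16.4 CPM far (1.82, SE 0.19). Isg15, a ubiquitin-like protein, stood at 35.8, 158, 27.1 and 57.9 CPM near and 8.21, 18.5, 16.2 and 7.8 CPM far (1.93, SE 0.28), and Cxcl10, a chemokine that attracts T cells, at 39.3, 134, 9.25 and 48.6 CPM near and 4.1, 48.2, 3.43 and 4.68 CPM far (2.31, SE 0.30). In each of these genes Vehicle 2+3 was the highest area and near spots exceeded far spots in all 4 areas.

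Many of these interferon-induced genes share a short promoter sequence. Promoters were searched over the 250 bases before the start of the gene, on both strands, for GAAANNGAAA or its reverse complement TTTCNNTTTC, the core of the interferon-stimulated response element, in RefSeq sequence of GRCm38.p6. Among the 27025 genes listed with a promoter, 3.46% held a match. Of the interferon-induced list 10 of the 14 genes with a promoter did (71.4%), and of the antigen presentation list 2 of 11 (18.2%), B2m and H2-T23, while none of 14 reactive astrocyte genes did. Of genes tested near against far that had a promoter, 247 of 8237 (3%) held a match, against 35 of 351 (9.97%) of those called higher near. A match says only that these letters lie in the window. The stretches around the matches of 5 of these genes are shown because they carry the letters the genes share, 5′ to 3′ on the strand of the gene, with the matches in capitals. B2m lies on the plus strand (chr2:122147518-122147587) with its match 139 bases before the start, Bst2 on the minus strand (chr8:71537557-71537632) with 2 overlapping matches 124 and 130 bases before it, Gbp2 on the plus strand (chr3:142620574-142620643) with a match at 59 bases, Cxcl10 on the minus strand (chr5:92349063-92349132) with a match at 213 bases, and Isg15 on the minus strand (chr4:156200845-156200926) with 3 overlapping matches from 66 to 78 bases.
B2m: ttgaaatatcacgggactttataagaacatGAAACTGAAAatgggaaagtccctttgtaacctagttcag
Bst2: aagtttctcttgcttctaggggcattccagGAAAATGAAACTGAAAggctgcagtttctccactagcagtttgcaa
Gbp2: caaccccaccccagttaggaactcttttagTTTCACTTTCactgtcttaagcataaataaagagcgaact
Cxcl10: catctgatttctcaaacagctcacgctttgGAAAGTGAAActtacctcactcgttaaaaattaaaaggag
Isg15: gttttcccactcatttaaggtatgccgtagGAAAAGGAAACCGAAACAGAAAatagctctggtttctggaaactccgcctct

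Of 10 tested reactive astrocyte genes 9 were called higher near, with a median of 1.85. Vim, an intermediate filament, stood at 358, 1165, 341 and 269 CPM near and at 78, 497, 35.8 and 39.8 CPM far (2.32, SE 0.20), and Gfap at 1371, 2256, 1854 and 1740 CPM near and 651, 2069, 246 and 551 CPM far (1.45, SE 0.24). All 9 tested genes of disease-associated microglia were called (median 1.45), as were 6 of 9 homeostatic microglia genes (0.83) and 8 of 10 mesenchymal glioma genes (1.26). Trem2, a lipid receptor of activated microglia, stood at 97.3, 342, 108 and 64.1 CPM near and 38.3, 130, 23.5 and 39 CPM far (1.47, SE 0.18). Ctss, Mpeg1, Ctsz, C1qc, Ly86, Apod, H2-D1 and Fcer1g completed the leading genes on this side, from 1.42 to 2.24. No gene of the macrophage list passed the filter on low counts in this comparison. The proliferation list was left out of the test because it defined the proliferating tissue and so the distance. Its sum was 131, 438, 93.1 and 161 CPM near and 67, 133, 48.5 and 52.3 CPM far, an order that the split itself favours. The macrophage list summed to 23.9, 126, 29 and 35.5 CPM near and 12.3, 37.1, 16.7 and 12.5 CPM far, higher near in every area. The part of tumour cells and macrophages in the immune and glial differences was not tested.

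None of the 10 corticothalamic genes was called by distance, with a median of 0.12. Over all genes tested 4.46% were called higher near and 1.96% lower, so 0 of 10 lies near the share of all genes. Hs3st4 stood at 396, 295, 285 and 195 CPM near and at 325, 330, 227 and 177 CPM far. Lower near proliferating tissue were Hap1, the huntingtin-associated protein, at 63.2, 52.5, 45 and 69.1 CPM near and 95.7, 133, 163 and 261 CPM far (-1.61, SE 0.16), and Slc30a3, the zinc transporter of glutamatergic vesicles, at 116, 108, 85.7 and 101 CPM near and 194, 152, 253 and 268 CPM far (-1.20, SE 0.14). Zcchc12, Cpne6, Nnat, Cpne7, Stum, Prdm8, Wfs1, Necab2 and Vstm2l were further leading genes lower near, from -1.67 to -0.96. The summed hypothalamic list stood at 666, 385, 1003 and 953 CPM near and 923, 1324, 1276 and 1710 CPM far. The hippocampal list stood at 657, 403, 270 and 334 CPM near and 915, 719, 597 and 847 CPM far. The striatal list was lower near in every area too, and the thalamic list was mixed. The part of brain region in the genes lower near was not tested. Sst, an interneuron neuropeptide, stood at 415, 163, 725 and 686 CPM near and at 651, 386, 782 and 1146 CPM far (-0.59, SE 0.12). The calls numbered 387 without TREAT 1+4 and 338 without TREAT 2+3, against 668 with all areas.

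By bins of 5 spacings, and in bins of at least 20 spots, the summed antigen presentation list ran from 9982 through 5995 to 3142 CPM in Vehicle 2+3 and from 3480 through 1612, 1155 and 1270 to 379 CPM in TREAT 2+3. In TREAT 1+4 it ran from 1606 through 664 and 596 to 374 CPM, and in Vehicle 1+4 from 1960 to 837 CPM. The summed level was highest in the nearest bin shown for each area. At matched distance the areas differed: between 5 and 10 spacings the list stood at 1960, 5995, 1606 and 1612 CPM, with Vehicle 2+3 apart from the others. The summed corticothalamic list stayed between 528 and 1034 CPM over all bins shown.

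**Figure D3:**
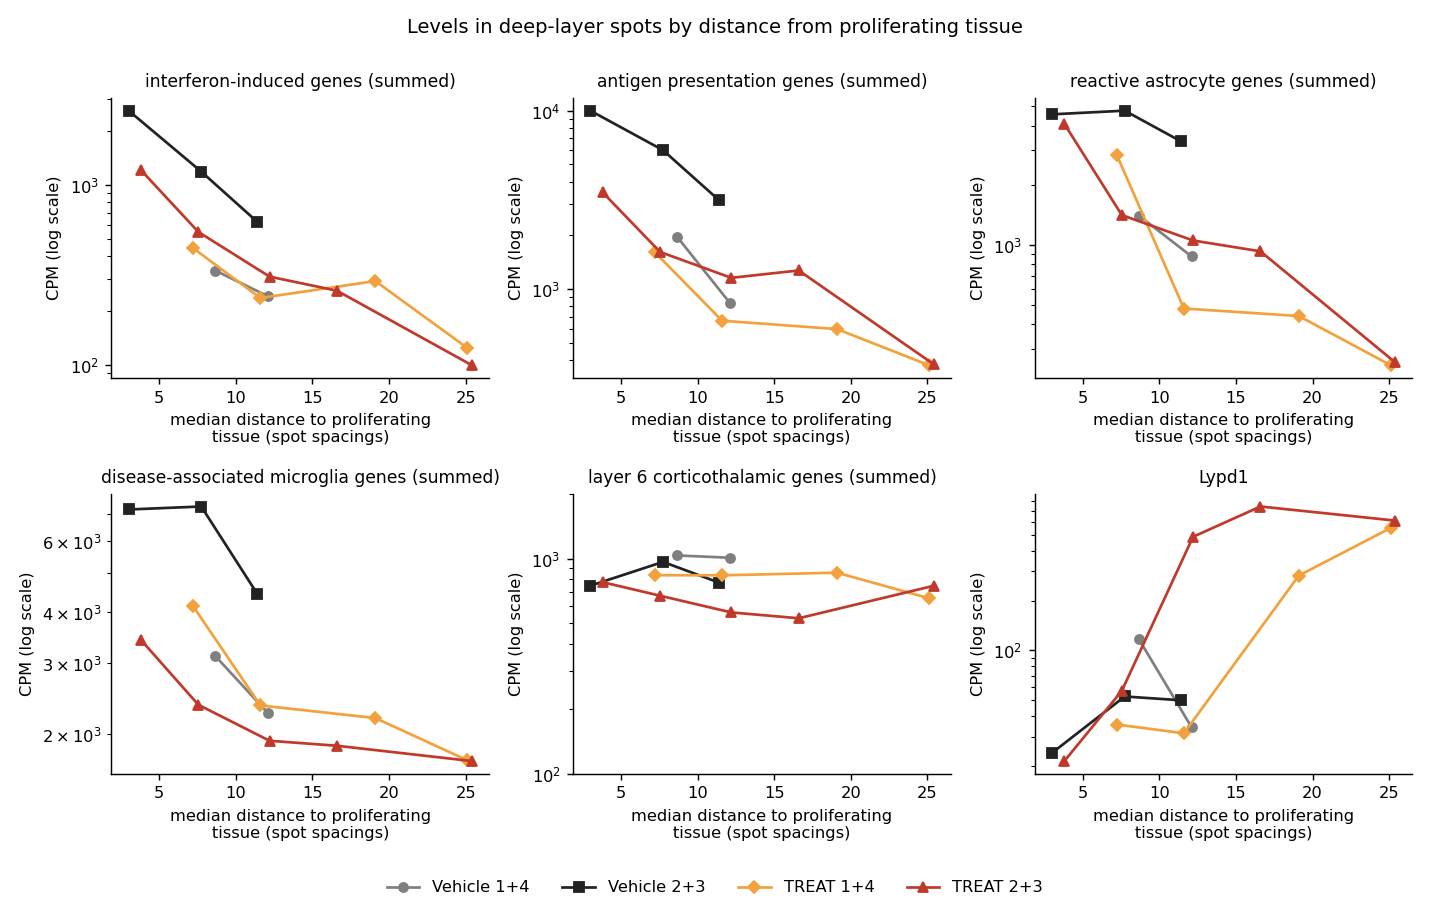
Summed CPM of 5 gene lists and the CPM of Lypd1 in deep-layer spots (log axis) against the median distance to proliferating tissue of bins of 5 spot spacings with at least 20 spots, 1 line per area. The antigen presentation list falls from 9982 to 3142 CPM in Vehicle 2+3 and from 3480 to 379 CPM in TREAT 2+3, the corticothalamic list stays between 528 and 1034 CPM and Lypd1 is at least 283 CPM in the bins beyond 15 spacings, which are shown for TREAT areas alone. All spots were chosen by deep-layer genes, which favours an even level of the corticothalamic list.

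The comparison of TREAT with Vehicle within deep-layer spots asked what differed between the treated and untreated groups. No gene passed the test: of 12166 tested by edgeR, 0 were called (0% of those tested), 1466 had an unadjusted p under 0.05, and the smallest adjusted p was 0.108. DESeq2 called 23 genes on the same sums. Without Vehicle 1+4 edgeR called 862 genes and without Vehicle 2+3 it called 60, fits that leave 1 Vehicle area and assume that it varies as the TREAT areas do. Simulated 4-fold changes were recovered in 100% of genes and 2-fold changes in 58% at this design. The simulated areas shared 1 mean profile and the same relative spread for every gene. Real areas of a group differed more in some genes, such as B2m at 697 and 2742 CPM in Vehicle. Nr4a2 differed by 2.04, about 4-fold, and was not called by edgeR (adjusted p 0.113). The 0 calls therefore do not exclude changes of that size. In 24.3% of the genes both TREAT areas lay above both Vehicle areas, and in 21.8% both lay below, so such an order alone was common.

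The genes with the smallest p among those higher in TREAT included Nr4a2 and Synpr of the claustral list and Lypd1; none passed. Nr4a2 stood at 31.1, 19.6, 107 and 115 CPM, and the TREAT areas lay above the Vehicle areas with a difference of 2.04 (SE 0.23, adjusted p 0.113). By piece of tissue it stood at 30.1, 33, 12.8 and 41.8 CPM in Vehicle and at 164, 46.7, 66.3 and 161 CPM in TREAT. Synpr, a synaptic vesicle protein, stood at 94.9, 50.6, 293 and 290 CPM (1.92, SE 0.24, adjusted p 0.119). Lypd1, a modulator of nicotinic receptors, stood at 80.5, 52.3, 228 and 310 CPM (1.96, SE 0.24, adjusted p 0.119). Lypd1 was listed as a near-projecting marker, but the other 3 tested genes of that list had differences below 0 and the median of the list was -0.43. Rims1, a scaffold of the presynaptic active zone, stood at 151, 152, 331 and 320 CPM (1.09, SE 0.15, adjusted p 0.147), Gm45623 at 19.7, 19.6, 82.2 and 86.6 CPM, and Plk5 at 10.6, 13.1, 48.9 and 48.5 CPM.

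All 7 tested genes of the layer 6 intratelencephalic and claustral list had both TREAT areas above both Vehicle areas, where 24.3% of all genes did, with a median of 1.67 beside -0.02 over all genes. Besides Nr4a2 and Synpr, Gnb4, a G protein subunit, stood at 48.6, 27.8, 125 and 134 CPM (1.67, SE 0.23, adjusted p 0.147), Ntng2, the adhesion protein netrin G2, at 91.9, 70.2, 184 and 188 CPM (1.16, SE 0.18, adjusted p 0.166) and Oprk1, the kappa opioid receptor, at 3.8, 11.4, 25.7 and 23.6 CPM (1.92, SE 0.44, adjusted p 0.31). By piece of tissue Ntng2 stood at 73, 128, 66.1 and 83.7 CPM in Vehicle and at 255, 109, 128 and 244 CPM in TREAT. Oprk1 stood at 1.16, 8.8, 4.27 and 34.9 CPM in Vehicle pieces and at 43.5, 6.75, 13.6 and 33 CPM in TREAT pieces. Pieces of the groups overlapped for Ntng2 and Oprk1, and not for Nr4a2, Synpr and Gnb4. Summed, the list was 301, 198, 780 and 795 CPM in deep-layer spots, 311, 272, 387 and 331 CPM in upper-layer spots and 147, 104, 257 and 247 CPM in all other spots, so both TREAT areas were above both Vehicle areas outside the deep layer too. The median of the list was 1.63 with spots of at least 5000 UMIs, 1.89 with members of 5000 to 20000 UMIs and 1.30 with members chosen after thinning, and Nr4a2 differed by 2.02, 2.00 and 1.82. With DESeq2, Nr4a2, Synpr, Gnb4 and Ntng2 were called, at adjusted p from 3.65e-07 to 0.0259. Whether the TREAT sections hold more of the lateral cortex and claustrum was not tested; the labels do not give the section plane. Beside it, 7 of 8 tested striatal genes had both TREAT areas above both Vehicle areas, with a median of 0.47, and Penk, the precursor of enkephalins, stood at 16.7, 24.5, 107 and 66.2 CPM (adjusted p 0.167). The corticothalamic list had a median of -0.16 and its sum was 951, 799, 783 and 675 CPM, and Cplx3 stood at 40.2, 40.8, 84.9 and 82.8 CPM (adjusted p 0.23).

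**Figure D4:**
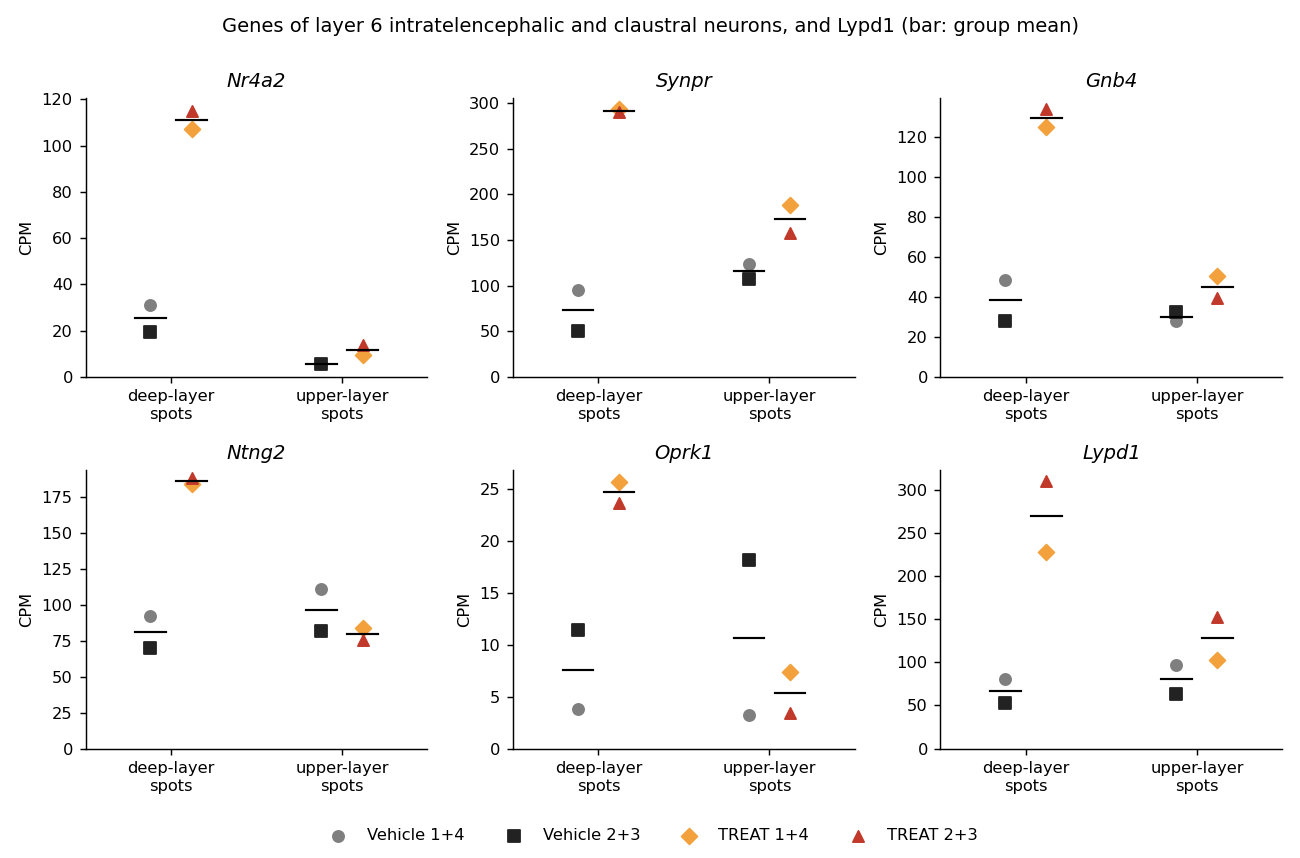
CPM of Nr4a2, Synpr, Gnb4, Ntng2, Oprk1 and Lypd1 in deep-layer and upper-layer spots, 1 point per capture area and a bar at the mean of each group of 2 areas. In deep-layer spots both TREAT points lie above both Vehicle points for all 6 genes, none of which passed edgeR's test between the groups; the smallest adjusted p of the 6 was 0.113.

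Among genes lower in TREAT, Adamts2, a procollagen protease, stood at 57.7, 45.7, 15.8 and 18.7 CPM (-1.62, SE 0.24, adjusted p 0.162), and Sox10, a transcription factor of the oligodendrocyte lineage, at 75.9, 109, 38 and 39.1 CPM (-1.23, SE 0.22, adjusted p 0.244). Blnk, Pde1b, Thbs4 and Adra1d had differences from -1.84 to -1.13. Both TREAT areas lay below both Vehicle areas in all 6. Immune and glial lists had lower medians in TREAT, but with 1 Vehicle area setting most of the gap. The antigen presentation list had a median of -1.65, and its sum was 1540, 6157, 956 and 1626 CPM, so Vehicle 1+4 lay within the TREAT range. Both TREAT areas lay below both Vehicle areas in 3 of its 15 genes, near the 21.8% of all genes, and without Vehicle 2+3 the median was -0.22. The interferon-induced list had a median of -0.91 and sums of 396, 1429, 300 and 521 CPM, and without Vehicle 2+3 the median was -0.02. The reactive astrocyte list had a median of -0.98 and sums of 1375, 4014, 1405 and 1622 CPM, and without Vehicle 2+3 the median was 0.02.

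Mesenchymal and microglial genes were ordered alike in most members, with no gene called. In the mesenchymal glioma list 11 of 14 tested genes had both TREAT areas below both Vehicle areas, where 21.8% of all genes did. The list had a median of -1.24 (-0.64 without Vehicle 2+3) and sums of 635, 1790, 444 and 487 CPM. Lgals1, a galectin of mesenchymal cells, stood at 39.5, 101, 24.3 and 28.1 CPM (adjusted p 0.333). In the homeostatic microglia list 7 of 10 genes were ordered so, beside the same 21.8% of all genes. Its median was -0.83 and its sums were 698, 1416, 556 and 512 CPM. Without Vehicle 2+3 the microglia median was -0.25. The spots of Vehicle 2+3 also lay nearest to proliferating tissue, at a median of 8.89 spacings against 10.8 to 11.3 in the other areas, and with members beyond 5 spacings in all areas the mesenchymal median was -1.06.

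The TREAT differences in deep-layer spots were set against those in upper-layer spots of the same areas in one fit, with a term for the difference between them. Of 12492 genes 4 were called (0.0320%), all with a higher TREAT difference in deep-layer spots, and 655 had an unadjusted p under 0.05. Ntng2 (chromosome 2, 29194726 to 29248099) stood at 91.9, 70.2, 184 and 188 CPM in deep-layer spots and at 111, 81.5, 83.8 and 75.8 CPM in upper-layer spots, and its TREAT difference was larger in deep-layer spots by 1.49 (SE 0.20, adjusted p 0.00791). Lypd1 stood at 80.5, 52.3, 228 and 310 CPM against 96.9, 63.4, 103 and 152 CPM (1.37, SE 0.20, adjusted p 0.0154), and Synpr at 94.9, 50.6, 293 and 290 CPM against 124, 107, 188 and 157 CPM (1.36, SE 0.21, adjusted p 0.0161). Cabp7, a calcium-binding protein and one of the CA score genes, stood at 59.2, 78.4, 36.6 and 54 CPM against 79, 112, 18.7 and 23 CPM (1.57, SE 0.25, adjusted p 0.0161), lower in TREAT in both classes and more so in the upper-layer spots. In all other spots Lypd1 stood at 34.5, 10.8, 84.8 and 142 CPM, Synpr at 37.9, 19.4, 102 and 89.6 CPM and Ntng2 at 40.1, 25.1, 59.2 and 64.9 CPM, so for these 3 genes both TREAT areas were above both Vehicle areas there too, and the contrast is one with upper-layer spots. On simulated counts the same fit called 8 unchanged genes beside the changed genes it recovered. None of the 4 was called by DESeq2 or without the filter on low counts, and leaving out 1 area raised the number of calls to between 22 (without TREAT 1+4, or without TREAT 2+3) and 151 (without Vehicle 1+4), with 42 without Vehicle 2+3. Penk stood at 16.7, 24.5, 107 and 66.2 CPM in deep-layer spots and at 12.2, 50.7, 679 and 329 CPM in upper-layer spots (-2.16, SE 0.39), which did not pass at an adjusted p of 0.0728.

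The change with distance was also compared between TREAT and Vehicle, a comparison chosen after the data were seen. Of 11233 genes 30 were called (0.267%), 25 with a higher and 5 with a lower near-to-far difference in TREAT. Lypd1 (chromosome 1, 125867622 to 125913175) stood at 83.6, 37.9, 34.5 and 41.7 CPM in near spots and at 78, 70.4, 382 and 646 CPM in far spots. The far spots of both TREAT areas stood apart from all other values, while near spots of the areas overlapped, and the near-to-far difference in TREAT minus that in Vehicle was -3.55 (SE 0.33, adjusted p 1.18e-06). Between 10 and 15 spacings Lypd1 stood at 34.3, 49.9, 31.5 and 486 CPM, and beyond 20 spacings at 550 and 609 CPM in the TREAT areas, where the Vehicle areas had under 20 spots. Far spots lay at a median of 20.3 and 20.8 spacings in TREAT and 13.9 and 11.9 in Vehicle, so distance and group cannot be told apart in the far spots.

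Tshz2, a zinc finger factor of near-projecting neurons, stood at 119, 29.2, 23.4 and 22.4 CPM near and 39.7, 26, 60.3 and 68.7 CPM far (-2.82, SE 0.36), a call that was lost without Vehicle 1+4. Hpcal1, a neuronal calcium sensor, stood at 143, 134, 80.1 and 77.8 CPM near and 111, 126, 198 and 309 CPM far (-1.90, SE 0.27), and Trp53i11 and Cadm1 were the other genes called lower. Klk6, a protease of oligodendrocytes, stood at 101, 344, 210 and 168 CPM near and 20.5, 208, 15.2 and 6.24 CPM far (2.85, SE 0.39), and Serpina3n at 135, 651, 335 and 199 CPM near and 23.2, 349, 12.7 and 25.8 CPM far (2.59, SE 0.41). The far spots of Vehicle 2+3 were high for both genes, and both calls were lost without that area. Gfap had a near-to-far difference that was 1.69 higher in TREAT (SE 0.27), and Trf, Cldn11, Lynx1, Nefm, Rgs4, Apod, AI593442, Cplx1 and Nrgn had differences from 0.81 to 1.65. Vehicle 2+3 was again high in far spots for Trf (828, 1716, 1033 and 1208 CPM near, 325, 1531, 216 and 219 CPM far). So it was for Cldn11 (411, 633, 457 and 319 CPM near, 241, 756, 146 and 92.1 CPM far). The summed oligodendrocyte list stood at 6362, 14553, 5272 and 3952 CPM in far spots. With DESeq2 3 genes were called, and with the proliferating tissue set at the 90th percentile 2 were. Leaving out Vehicle 1+4 gave 107 calls and leaving out Vehicle 2+3 gave 71.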

How the data were processed

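Raw UMI counts per gene and spot were deposited by the authors as whole numbers without normalization; Space Ranger 2.1.1, build mm10, R 4.4.1 and Seurat are named per the submitters' processing notes. Each file listed 32589 features; 304 marked deprecated were left out and 20457 with counts were used. Of 20429 symbols, 20018 matched the GRCm38.p6 gene table, which gave positions. Of 13046 tissue spots, the 12696 that reached 2000 UMIs were kept; no doublet caller was run. Barcodes are array positions: 1825 over tissue recur in all 4 areas, and 217 members share a barcode with a member of another area.

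Counts were summed per area and class and tested with edgeR 4.0.16 (R 4.3.3, limma 3.58.1; TMM, filterByExpr, quasi-likelihood, threshold 0.05), with the area as a block except between groups; spots are not replicates, and the labels do not tie areas to animals, so p-values measure the spread between areas. Alternatives were DESeq2 1.42.0, library totals, no gene filter, other percentiles, a minimum of 5000 UMIs, thinning to 2000 UMIs, a block for the label number, and fits without each area in turn; members with at least 2 member neighbours, beyond 5 spacings or of 5000 to 20000 UMIs were added after seeing the data. Python 3.11.15, numpy 2.4.6, scipy 1.17.1, pandas 2.3.3 and matplotlib 3.10.9 were used.

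Members and gene lists (38 lists, 474 genes) were chosen with earlier results of these data known. Per comparison the 12 genes of smallest p in each direction were named, with a mean of at least 10 CPM on the higher side and 1 sign in every area (or groups that did not overlap); with fewer than 6 called, values are given for the 6 genes of smallest p. Up to 4 members of a described list were named. A few genes that these rules select are not reported here. Fits were tested on simulated counts: of 2-fold and 4-fold changes, 77% and 95% were recovered against other spots (19372 genes), 98% and 100% against upper-layer spots (11803 genes), 89% and 100% against CA spots (11044 genes), 89% and 100% near against far (10341 genes), 58% and 100% between groups (12097 genes) and 18% and 90% for the difference of group effects (12307 genes). Unchanged genes called in these simulations numbered 3, 13, 12, 6, 12 and 8 in the same order. The simulated areas shared 1 mean profile and the same relative spread for every gene. Changed genes were drawn from those with higher counts, so recovery in the real data can be lower.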

Additional observations from a re-analysis of the deposited data

Results flagged for a closer look

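The TREAT effect differed between deep-layer and upper-layer spots by the test of the difference itself for 4 genes, on the log2 scale: Ntng2 by 1.49, Lypd1 by 1.37, Synpr by 1.36 and Cabp7 by 1.57. Synpr lost its call when members were chosen after thinning, and Cabp7 when only spots of at least 5000 UMIs were used.

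The near-to-far difference within deep-layer spots differed between TREAT and Vehicle for 17 named genes, by the same kind of test. It was lower in TREAT for Lypd1 (-3.55), Tshz2 (-2.82), Hpcal1 (-1.90), Trp53i11 (-1.63) and Cadm1 (-0.90). It was higher in TREAT for Klk6 (2.85), Serpina3n (2.59), Gfap (1.69), Trf (1.65), Cldn11 (1.47), AI593442 (1.42), Apod (1.30), Nefm (1.18), Rgs4 (1.18), Lynx1 (1.13), Cplx1 (0.88) and Nrgn (0.81). Lypd1 was called under each alternative run for this comparison.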

How the results depend on the processing

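Between the groups, where edgeR called 0 genes, DESeq2 called 23, the fit without a gene filter 366, a stricter score threshold 4, members with at least 2 member neighbours 3 and members beyond 5 spacings 3; leaving out 1 area gave 0 to 862. With the label number as a replicate block 6 genes were called; the areas of one number had deviations that correlated at 0.14 over 12166 genes, but there are 2 numbers and no source says what they pair. Leaving out 1 area gave 5031 to 7690 calls against other spots, 855 to 1877 against upper-layer spots (1687 with all areas; DESeq2 706), 678 to 1606 against CA spots (1192), 338 to 857 near against far (668; DESeq2 265; 357 with proliferating tissue at the 90th percentile), 22 to 151 for the TREAT effect in deep-layer against upper-layer spots (4), 23 to 107 for the near-to-far difference between groups (30), and a difference in shares of 0.61 to 3.84 points. The TREAT effect in deep-layer against upper-layer spots had 1 call with DESeq2, 0 without a gene filter (edgeR, 630 at an unadjusted p under 0.05), 9 with a looser and 20 with a stricter score threshold, 15 after thinning and 7 with at least 3 score genes; the near-to-far difference between groups had 3 with DESeq2, 94 without a gene filter and 2 with proliferating tissue at the 90th percentile. Ptgds against CA spots turned to 0.52 (adjusted p 0.0237) after thinning. Scaling by library totals called 2472 genes higher and 4588 lower than in other spots, where TMM gave 3187 and 3881, with a median of -0.33. The cause of these shifts was not tested. Member sums of 612296 to 3662581 UMIs and 2 areas a group limit the precision.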

Other observations

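Axon guidance and adhesion genes divided deep-layer spots from both other classes in both directions. Of 17 tested, 7 were called higher and 6 lower than in upper-layer spots, where 7.23% and 7.09% of all genes were, and 7 higher and 6 lower than in CA spots, where 5.45% and 5.36% were. Sema3e, a semaphorin, stood at 46.3, 50.6, 45.3 and 31.9 CPM in deep-layer spots (in the area order of the report) and at 8.14, 18.1, 17 and 11.9 CPM in upper-layer spots (log2 difference 1.62, SE 0.18). Plxnd1, its receptor, stood at 62.3, 68.6, 82.5 and 70 CPM in deep-layer spots and at 164, 159, 153 and 157 CPM in upper-layer spots (-1.09, SE 0.10). Epha4, an ephrin receptor, stood at 139, 139, 145 and 176 CPM in deep-layer spots, 238, 248, 242 and 303 CPM in upper-layer spots and 283, 479, 439 and 430 CPM in CA spots.

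Of 19 tested neuropeptide and receptor genes 4 were called higher and 9 lower than in upper-layer spots, where 7.23% and 7.09% of all genes were. Of 15 tested against CA spots 5 were called higher and 2 lower, where 5.45% and 5.36% of all genes were. Sstr2, a somatostatin receptor, stood at 31.9, 18, 33.9 and 29.8 CPM in deep-layer spots and at 12.2, 9.06, 10 and 6.39 CPM in upper-layer spots (1.78, SE 0.20). Cckbr, a cholecystokinin receptor, stood at 56.2, 39.2, 91.2 and 47.4 CPM in deep-layer spots and at 8.07, 9.54, 9.39 and 4.77 CPM in CA spots (2.84, SE 0.25). Of 17 potassium channel genes 6 were called higher and 1 lower than in CA spots, beside the same 5.45% and 5.36% of all genes, with Kcnt1, a sodium-activated channel, at 85.8, 67, 73.2 and 78.6 CPM in deep-layer spots and 32.3, 22.5, 21.1 and 20.7 CPM in CA spots (1.65, SE 0.17). Trbc2 also stood higher in near than in far deep-layer spots, by 0.66 (SE 0.16, adjusted p 0.00985), at 34.1, 61.3, 104 and 60.4 CPM near and 34.2, 48.2, 64.7 and 30.4 CPM far; Vehicle 1+4 showed no such rise.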
